A study of Homo sapiens with 4 samples.

Results

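Chromatin accessibility was examined around 8 human genes that write, copy or erase DNA methylation or that activate azacytidine: DNMT1, DNMT3A, DNMT3B, UHRF1, TET1, TET2, TET3 and UCK2. Each gene stood for a fixed window of the hg19 build, and every deposited ATAC-seq peak that overlapped a window was a member. The windows spanned 1025 kb in all. Peaks of the 4 libraries that shared at least 1 bp were merged, which left 254 regions in the windows out of 373425 on chromosomes 1 to 22 and X. The cells were BCPAP, an established human thyroid cancer line, either untreated (2 libraries) or treated with 5-azacytidine (2 libraries), a cytidine analogue that lowers DNA methylation. Both groups came from the same single line, and the labels name no dose, no duration and no vehicle. They also do not state whether replicates were separate cultures, so differences between replicates may be technical. The study asked where accessibility changes once DNA is demethylated. The line's identity was not checked against thyroid markers here, because no hg19 positions of genes other than the 8 members were used.

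Methyl groups on cytosine are placed mostly at CpG, a cytosine followed by a guanine. DNMT3A and DNMT3B set new marks, while DNMT1 copies existing marks onto the new strand after replication, guided by UHRF1, which binds DNA methylated on the old strand alone. The TET enzymes oxidise methylcytosine and so begin its removal. UCK2 is a uridine-cytidine kinase that phosphorylates azacytidine, the first step by which cells turn the drug into a nucleotide. As a nucleotide the drug enters RNA and, after reduction, DNA, where it traps DNMT enzymes covalently and leads to their loss.

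CpG is the site at which the DNMT enzymes place most methyl groups, so start-site sequences of 3 of the genes are shown with each CpG in capitals. They are DNMT1 and UHRF1, whose windows held more peaks in both treated libraries, and DNMT3B, whose sequence had the fewest CpG of the group. RefSeq start-site sequences (250 bases before to 50 after the start, 300 in all) were at hand for all 8 genes, 19 sequences in total. They are on GRCh38.p14 and cannot be set against the hg19 positions of the peaks. The DNMT1 sequence is chr19:10194904-10195203 on the minus strand, the UHRF1 sequence is chr19:4909251-4909550 on the plus strand and the DNMT3B sequence is chr20:32779602-32779901 on the plus strand, all on GRCh38.p14.
DNMT1: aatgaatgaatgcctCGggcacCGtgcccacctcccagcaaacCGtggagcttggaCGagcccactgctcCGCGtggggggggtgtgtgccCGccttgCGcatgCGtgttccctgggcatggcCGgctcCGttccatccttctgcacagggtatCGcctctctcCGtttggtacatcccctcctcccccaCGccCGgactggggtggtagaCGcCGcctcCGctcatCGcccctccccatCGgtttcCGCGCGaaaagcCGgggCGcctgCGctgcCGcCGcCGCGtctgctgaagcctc
UHRF1: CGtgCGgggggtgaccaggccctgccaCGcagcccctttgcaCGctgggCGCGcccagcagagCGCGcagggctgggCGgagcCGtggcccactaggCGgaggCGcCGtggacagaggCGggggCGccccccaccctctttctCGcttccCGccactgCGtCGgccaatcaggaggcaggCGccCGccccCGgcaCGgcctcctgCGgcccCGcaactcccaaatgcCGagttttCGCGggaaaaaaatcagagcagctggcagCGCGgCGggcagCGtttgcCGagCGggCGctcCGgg
DNMT3B: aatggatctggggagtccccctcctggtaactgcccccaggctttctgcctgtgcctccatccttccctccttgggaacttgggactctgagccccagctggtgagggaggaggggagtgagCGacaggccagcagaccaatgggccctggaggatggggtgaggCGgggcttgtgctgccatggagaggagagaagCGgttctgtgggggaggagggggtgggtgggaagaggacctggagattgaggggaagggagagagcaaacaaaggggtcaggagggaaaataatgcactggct

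The DNMT1 sequence held 30 CpG and this UHRF1 sequence, the first of 3 for the gene, held 36. The DNMT3B sequence held 3, against a median of 14 over 35116 sequences, of which 81.8% held at least 3. Whether it is the main start of DNMT3B was not checked. The count describes this sequence and not every start of the gene. The highest count among the 19 was 46, reached by DNMT3A and by another UHRF1 start. The letters GGGCGG, a GC box, were found on either strand in 12 of the 19 sequences and in 45.0% of all sequences. Several of the 19 are overlapping starts of the same gene, as at DNMT3A, so the 12 are not separate finds. Of 2 E2F-type motifs searched on both strands, TTTCCCGC occurred in the UHRF1 sequence shown, on the opposite strand (1 of 19, 1.63% of all), and TTTGGCGC in none (0.652% of all). A GC box and TTTCCCGC can share letters, but their matches in UHRF1 lay apart. These are letter matches only.

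The 4 lists held 221110 to 259572 peaks on the chromosomes used, and the number of reads behind them is unknown. Summit coverage, the reads stacked at a peak's summit, was recovered from the authors' fold enrichment and was 4 or more in every list. Below, values always run from replicate 1 to replicate 2 within a group, untreated first. Median coverage over the 105414 regions shared by every list was 23 and 18 untreated against 11 and 16 treated, so treated replicate 1 had the lowest summits. Treated lists therefore had more peaks but lower ones. The background against which each list's fold was taken, recovered from the same fold values, was 0.913 and 0.898 untreated and 0.898 and 0.875 treated. Whether sequencing depth contributed to the lower summits was not tested. Shares over all regions, or over a member's chromosome, are given beside most counts in the windows.

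More peaks lay in the windows after treatment. Together they held 128 and 151 untreated against 188 and 178 treated peaks. The treated mean was 183 ± 7.07 and the untreated mean 140 ± 16.3 (SD, n = 2 each), a ratio of 1.31, and the groups did not overlap. Over all chromosomes used the ratio was 1.14, and the groups did not overlap there either (221110 and 223345 against 259572 and 245142 peaks). With 2 libraries against 2, the lowest p an exact permutation test (two-sided) can reach is 0.333, which was its value here, so no count here could pass a threshold.

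**Figure D1:**
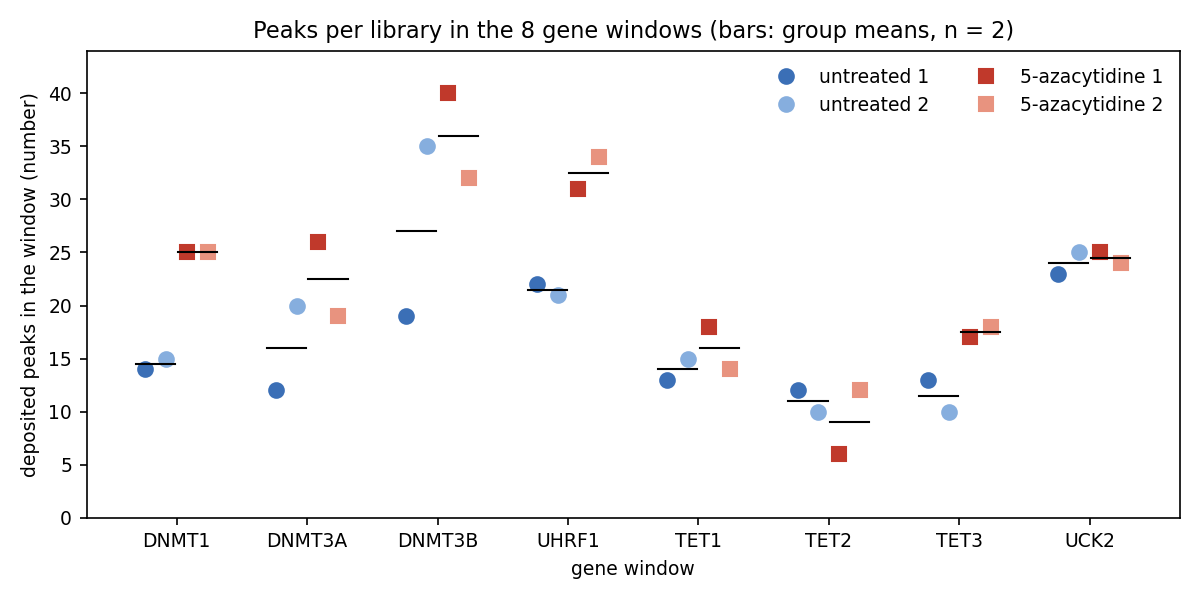
Number of deposited peaks (vertical axis) in each gene window (horizontal axis) for the 4 libraries, with bars at the group means. The treated libraries lie above both untreated libraries for DNMT1 (25 and 25 against 14 and 15), UHRF1 and TET3, and overlap with them in the other 5 windows.

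Both maintenance genes had more peaks in each treated library than in either untreated one. The DNMT1 window (chromosome 19, 10230 to 10325 kb) held 14 and 15 peaks in the untreated libraries and 25 in each treated library, a ratio of 1.72. The UHRF1 window (chromosome 19, 4890 to 4980 kb) held 22 and 21 untreated peaks and 31 and 34 treated peaks, a ratio of 1.51. All of chromosome 19 had a ratio of 1.23, also without overlap of the groups (7459 and 8702 against 10399 and 9413 peaks). In both windows the 2 treated libraries were close to each other and above both untreated libraries.

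Among the de novo enzymes the groups overlapped. The DNMT3A window (chromosome 2, 25440 to 25585 kb) held 12 and 20 untreated peaks and 26 and 19 treated peaks, a ratio of 1.41 against 1.06 for all of chromosome 2. The DNMT3B window (chromosome 20, 31330 to 31415 kb) held 19 and 35 untreated peaks and 40 and 32 treated peaks, the highest mean of the 8 in each group. Its ratio of 1.33 was that of chromosome 20 as a whole, 1.32. Both differences hung on untreated replicate 1, which had few peaks there: the log2 ratio was 0.49 for DNMT3A and 0.42 for DNMT3B with all libraries, and 0.17 and 0.041 without that library. Without treated replicate 1 it was 0.25 for each. Without untreated replicate 2 it was 0.91 and 0.92.

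The TET windows went different ways. TET3 (chromosome 2, 74210 to 74355 kb) held 13 and 10 untreated peaks and 17 and 18 treated peaks, a ratio of 1.52 against 1.06 for all of chromosome 2. TET1 (chromosome 10, 70300 to 70470 kb) held 13 and 15 against 18 and 14 peaks, a ratio of 1.14 against 1.11 for all of chromosome 10. TET2 (chromosome 4, 106050 to 106220 kb) held 12 and 10 against 6 and 12 peaks, the single window with a treated mean under the untreated one. Its ratio was 0.818, against 1.04 for all of chromosome 4. That order came from treated replicate 1, and without it the log2 ratio turned from −0.29 to 0.13. The groups overlapped for TET1 and TET2 and did not for TET3, nor for all of chromosome 2 (16546 and 15628 against 16992 and 17173 peaks).

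The window of the activating kinase UCK2 (chromosome 1, 165775 to 165900 kb) held 23 and 25 untreated peaks and 25 and 24 treated peaks. Its ratio was 1.02, against 1.19 for chromosome 1. Thus 3 of the 8 windows had more peaks in both treated lists and 0 had fewer in both. Of 8443 consecutive 100 kb tiles with at least 40 peaks over the 4 lists, 36.7% had more peaks in both treated lists and 7.09% had fewer. A count of 3 of 8 is near that background, and so says nothing particular about these genes as a group. The tiles are a rough background only, since the windows were 85 to 170 kb long and had no minimum number of peaks.

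Presence of peaks was compared next. A region with a peak in both treated lists and neither untreated list is called gained here, and the reverse lost. The windows held 17 gained regions, 6.69% of 254 (95% Wilson interval 4.22 to 10.5), where 4.21% of all regions were gained. They held 2 lost regions, 0.787% (0.216 to 2.82), where 3.35% of all regions were lost. The intervals cover counting error only, and neighbouring regions are not independent. Regions shared by 1 untreated and 1 treated list alone numbered 3 to 7 for each such pair. Another 75 regions, 29.5%, were in all 4 lists, close to the 28.2% of all regions.

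**Figure D2:**
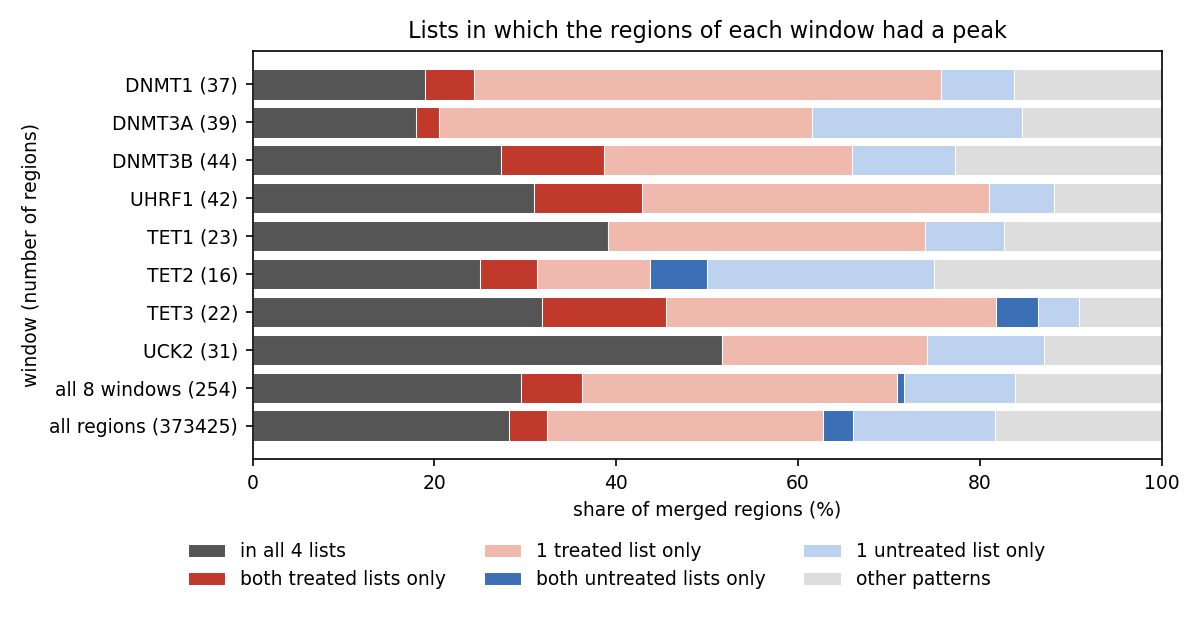
Share of merged regions (horizontal axis, %) by the lists in which they had a peak, for each window, the 8 windows together and all 373425 regions. Regions in both treated lists only are most frequent in the TET3, UHRF1 and DNMT3B windows, and the UCK2 window has the largest share in all 4 lists (16 of 31).

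Gained regions lay in 6 windows. UHRF1 and DNMT3B had 5 each, TET3 had 3, DNMT1 had 2, and DNMT3A and TET2 had 1 each, while TET1 and UCK2 had 0. On whole chromosomes gained regions made up 5.85% on chromosome 19 and 5.32% on chromosome 20, above the level of all regions. For 6 of the 17, 3 of them at DNMT3B, the running peak numbers of an untreated list skipped a value at that place, which leaves the absence uncertain. None of the 5 at UHRF1 and of the 2 at DNMT1 had such a gap. Leaving regions with a gap out left 11 gained and 1 lost, and over all regions 3.18% and 2.48%.

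Gained regions were low. Their coverage ran from 4 to 12 with a median of 6, which is also the median of gained regions over the whole genome. The highest was at DNMT1, at chromosome 19, 10279081 to 10279761, where treated coverage was 10 and 12 and neither untreated list had a peak. It was the single gained region of the windows to reach 10 in both lists, 1 of 17 (5.88%), where 3.30% of all gained regions did. At UHRF1 the region from 4930655 to 4931196 had 7 and 11, and that from 4928052 to 4928952 had 9 and 4. The other 3 at UHRF1, from 4913927, 4923689 and 4944523, had 5 and 5, 6 and 4, and 6 and 7. Coverage of 4 or 5 is at or next to the lowest at which a peak was listed, while the 10 and 12 at DNMT1 stand beside medians of 11 and 16 in the shared regions of the treated lists.

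Elsewhere the gained regions had similar values. The second at DNMT1, from 10249522 to 10250118, had a coverage of 5 and 5. At DNMT3B the 5 regions, between 31352487 and 31400746 on chromosome 20, had 4 or 5 in treated replicate 1 and 5 to 9 in treated replicate 2. At TET3 the regions from 74316952, 74210700 and 74265146 on chromosome 2 had 8 and 6, 5 and 8, and 5 and 5. The DNMT3A region from 25508785 had 4 and 9, and the TET2 region from 106066480 on chromosome 4 had 8 and 6.

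Both lost regions were at TET genes. At TET3, chromosome 2 from 74228242 to 74228776 had an untreated coverage of 12 and 17, with a missing peak number in a treated list. It lay just below the strongest region of that window. At TET2, chromosome 4 from 106145309 to 106145834 had 12 and 4 in the untreated libraries.

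Peaks of a single condition were then counted, whether in 1 or both of its lists. Regions found in treated lists only numbered 105 in the windows, 41.3%, and those found in untreated lists only 33, 13.0%. Over all regions these shares were 34.5% and 19.0%. The numbers were 21 against 3 for DNMT1, 21 against 3 for UHRF1, 11 against 2 for TET3, 17 against 5 for DNMT3B, 17 against 9 for DNMT3A, 8 against 2 for TET1 and 7 against 4 for UCK2. TET2 had the opposite order, with 3 against 5. Many absences are uncertain. In a list without a peak, a peak number was missing at 19 of 50 regions found in treated replicate 1 alone. For treated replicate 2 alone it was 18 of 38, and for the untreated replicates alone 3 of 9 and 7 of 22. At DNMT3A it was 10 of 12 and 3 of 4 for the treated replicates, and at UHRF1 2 of 8 and 7 of 8. Over all regions it was 23027 of 72023 and 13498 of 41040.

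The widest stretch of each window between neighbouring regions of all 4 lists is given as a description. It was taken after the maps were seen, and no genome value was computed for such stretches. Regions of all 4 lists, which count alike in both groups, are left out by this definition. That can raise the relative difference between the groups by construction. At DNMT1 it ran for 66.9 kb, from 10233214 to 10300160, and held 27 regions. Of these, 4 and 5 had an untreated peak and 15 and 13 a treated peak. Their coverage was 4 to 12 with a median of 5. At TET3 the stretch was 117 kb long and held 9 regions, 1 and 0 of them untreated and 5 and 6 treated. At UHRF1 it was 31.6 kb long with 15 regions, 2 in each untreated list against 9 and 8 treated. At TET2 the order was the other way, with 2 and 2 untreated against 0 and 1 treated regions in 39.2 kb. The DNMT3A stretch of 39.8 kb held 0 and 2 untreated against 8 and 5 treated regions. Each of its 11 regions, with coverage of 5 to 7, had a missing peak number in a list without a peak, so absence there is uncertain. The TET1 stretch of 47.1 kb held 0 and 0 untreated against 3 and 1 treated regions. At DNMT3B the groups overlapped, with 0 and 6 untreated against 6 and 4 treated regions in 29.1 kb. The UCK2 stretch of 13.5 kb held 0 regions.

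**Figure D3:**
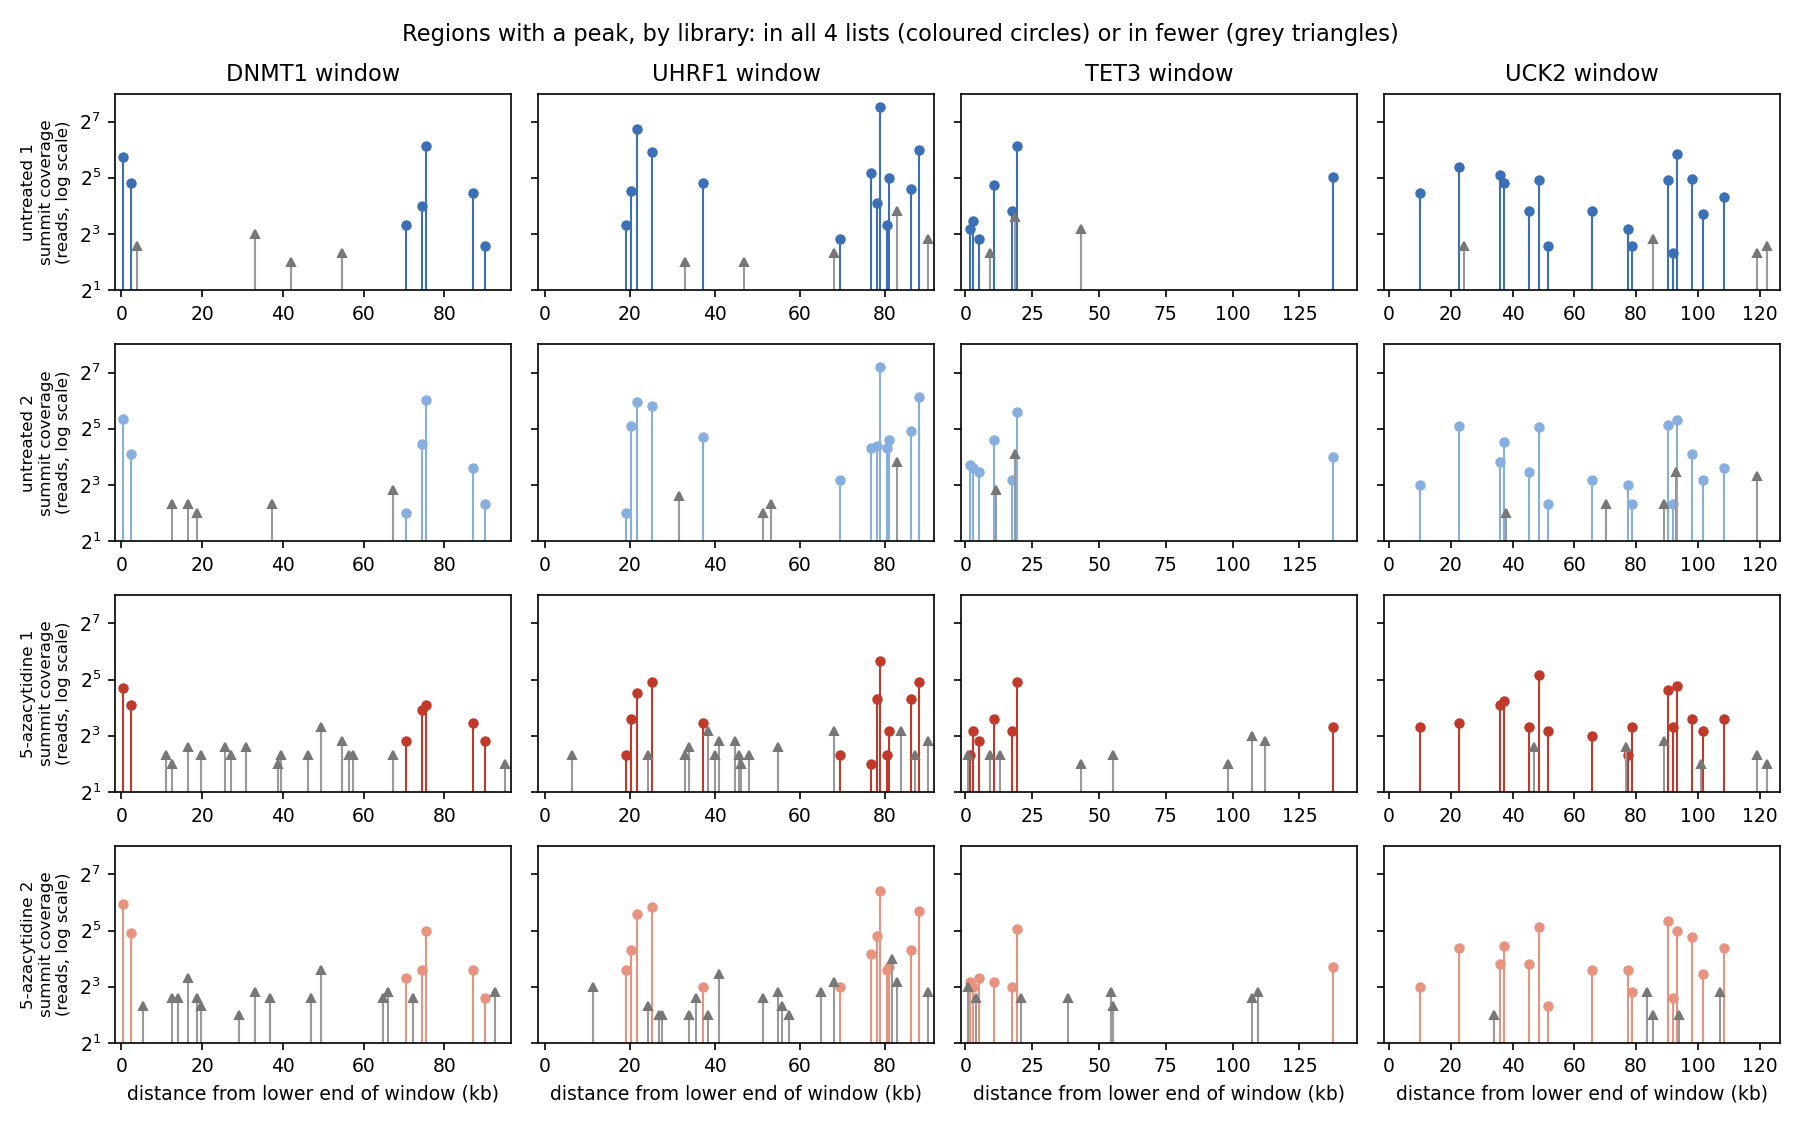
Summit coverage (vertical axis, reads, log scale) of the regions with a peak along the DNMT1, UHRF1, TET3 and UCK2 windows (horizontal axis, kb from the lower end), 1 row for each library; coloured circles are regions of all 4 lists and grey triangles the others. Grey triangles are denser in both treated rows for DNMT1, UHRF1 and TET3, at a coverage of 12 or less in the widest DNMT1 stretch, and not for UCK2.

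The gain in number rested on weak peaks. With peaks of a −log10 q of at least 5 only, the windows held 92 and 92 untreated and 73 and 93 treated peaks, and the groups overlapped. The log2 ratio then was −0.15, after 0.39 with all peaks, and over all peaks of the genome it moved from 0.18 to −0.22. With the same number of peaks in every list the windows kept a log2 ratio of 0.18, where the genome is at 0 by construction. Gained regions then numbered 8 and lost regions 3, where 3.22% of all regions were gained and 4.57% lost. With the stricter q the numbers were 4 and 4, where 2.23% of all were gained and 6.88% lost. Over all regions lost ones thus outnumbered gained ones under either setting.

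Summit coverage was then compared in the 75 regions of all 4 lists. Median coverage was 25 and 21 untreated against 11 and 17 treated, with the lists in the same order as over the genome. Treated coverage lay under both untreated values in 41 of the 75 regions (54.7%), where 47.6% of all such regions did so. It lay above both in 3, where 4.39% did. Treated replicate 1 had the lowest value in 48 of the 75 (64.0%), as in 63.0% of all regions. Lower treated coverage was thus common over the genome as well, but its share differed between windows. Both treated values were lower in 64.4% of regions in the 7 windows without UCK2 and in 18.8% at UCK2. Those 7 windows were not alike: DNMT1 was nearest to UCK2, with 28.6%, and DNMT3B had 83.3%. Whether these shares differ from that of the genome was not tested.

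To set the genome-wide shift in coverage aside, each region was ranked by its peak's p-value within each list. Ranks were taken among the same 105414 regions, from 0 for the weakest to 100 for the strongest. Ranks were lower in both treated lists in 22 of the 75 regions, against 23.7% of all, and higher in both in 14, against 22.5% of all. The shares in the windows were 29.3% and 18.7%. The windows differed in balance. At DNMT3B 5 of 12 regions had lower ranks in both treated lists and 0 had higher, at TET1 5 of 9 and 1, at UHRF1 5 of 13 and 1, at DNMT3A 3 of 7 and 0, and at TET3 2 of 7 and 0. At TET2 neither pattern occurred in its 4 regions. DNMT1 had 4 of 7 higher and 1 lower, and UCK2 had 8 of 16 higher and 1 lower.

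**Figure D4:**
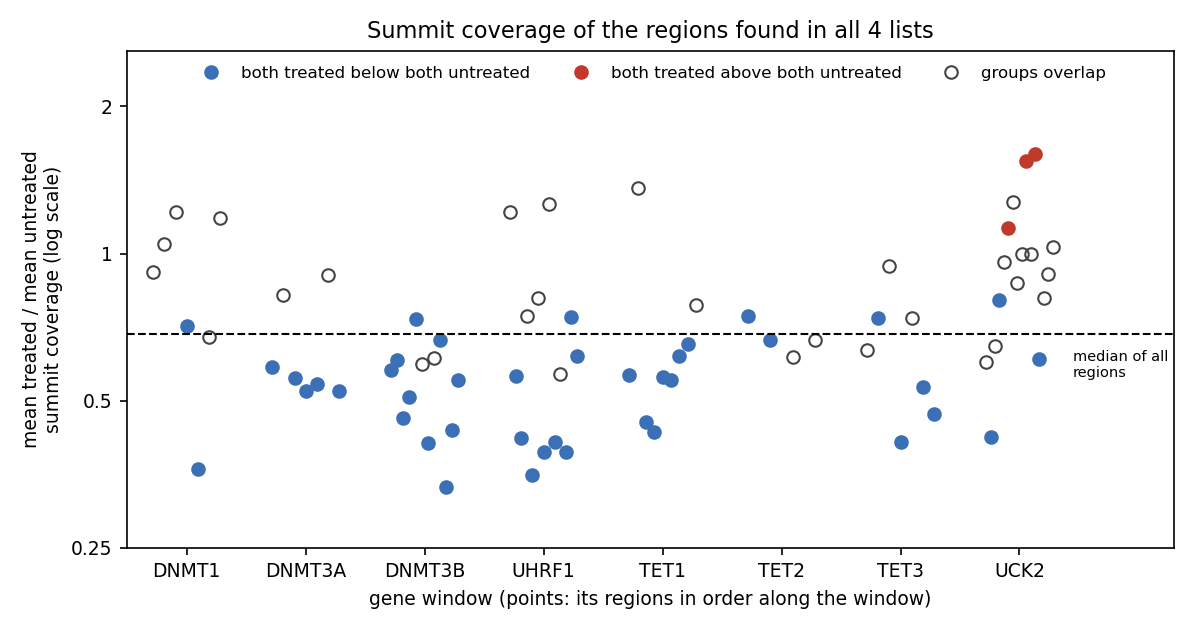
Ratio of mean treated to mean untreated summit coverage (vertical axis, log scale) for each of the 75 regions of all 4 lists, by gene window (horizontal axis); filled points are regions where the groups do not overlap, and the dashed line is the median of all 105414 regions, 0.684. The 3 points above 1 with separate groups are all at UCK2, and the DNMT1 window holds both a ratio of 0.363 and 3 ratios above 1.

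At DNMT1 a single strong site had much lower coverage after treatment. It lay on chromosome 19 from 10305097 to 10305993, at 79.5% of the window's length, and DNMT1 is read from the upper side of its window downward. Its coverage was 70 and 65 untreated against 17 and 32 treated. The ratio of means was 0.363, and the rank moved from 90.5 and 94.1 to 70.8 and 80.8. Both treated libraries were therefore lower on either scale.

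The other strong site of the window did not follow it. From 10229942 to 10230949, across the lower edge of the window on the side of the neighbouring gene EIF3G, coverage was 54 and 41 untreated against 26 and 61 treated. Its ranks were 83.5 and 83.1 against 87.2 and 96.4. Coverage overlapped between the groups, while the ranks were higher in both treated lists. The next site, from 10231385 to 10233213, had 28 and 17 against 17 and 30.

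The UHRF1 window held the strongest sites of all 8 windows. The highest, on chromosome 19 from 4968505 to 4969031, reached 183 and 148 reads untreated against 51 and 85 treated. Its ratio was 0.411, with ranks of 99.8 and 99.9 against 98.5 and 99.0, so it stayed among the strongest sites of every list. It lies at 87.5% of the window, toward the gene that follows UHRF1, the histone demethylase gene KDM4B. Whether it belongs to UHRF1 or to KDM4B was not tested. The site from 4910868 to 4912469, at 24.1% of the window, had 107 and 62 against 23 and 48. UHRF1 is read upward from the lower side. The ratio there was 0.420, and the ranks were 97.3 and 93.3 against 83.2 and 92.4. In both sites the groups did not overlap. Between them in rank, the site from 4977512 to 4978712 had 63 and 70 against 30 and 52.

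Among the de novo enzymes, the strongest sites of the DNMT3B window all had lower coverage in both treated libraries. The site on chromosome 20 from 31410535 to 31411847 had 78 and 58 untreated and 28 and 47 treated reads at the summit. That from 31334171 to 31334743 had 79 and 60 against 27 and 37, and that from 31407394 to 31408950 had 76 and 55 against 23 and 34. The pair from 31410535 and 31407394 lies at the upper end of the window, toward the next gene, MAPRE1, and the other at the lower end, toward COMMD7. Whether these edge sites belong to DNMT3B or to those neighbours was not tested. The next by rank, from 31349581 to 31351701 at 24.3% of the window, had 55 and 50 against 18 and 25, a ratio of 0.410. Its ranks were lower in both treated lists. The site with the lowest ratio of all 75, 0.333, lay inside the window from 31377754 to 31378293, with 58 and 35 against 11 and 20. Coverage was lower in both treated lists in 10 of the 12 DNMT3B regions, and in 43.5% of the shared regions of chromosome 20.

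DNMT3A sites were weaker. The strongest, on chromosome 2 from 25584837 to 25585779 at the upper edge of the window, had 46 and 38 untreated and 17 and 27 treated reads at the summit. The site from 25524249 to 25524780 had 37 and 30 against 17 and 18. The site from 25486528 to 25487348 had 27 and 24 against 12 and 30, so that treated replicate 2 was the highest and the groups overlapped.

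The TET genes each had a strong site with lower treated coverage. At TET3, chromosome 2 from 74228938 to 74230088 had 70 and 48 untreated and 30 and 33 treated reads, a ratio of 0.534. Its ranks of 90.5 and 87.5 against 91.0 and 81.9 overlapped. The next by rank, from 74220433 to 74221238, had 27 and 24 against 12 and 9. At TET1, chromosome 10 from 70354103 to 70354656 had 46 and 41 against 20 and 28, and from 70359620 to 70360514 it had 36 and 40 against 20 and 27. At TET2, chromosome 4 from 106067334 to 106068235 had 34 and 25 against 24 and 20, with a ratio of 0.746. Its ranks of 66.8 and 65.0 against 84.6 and 60.2 overlapped. The next by rank, from 106115765 to 106116288, had 23 and 13 against 9 and 15, which overlap as well. The TET1 site from 70308811 to 70309389 had 13 and 12 against 11 and 23, and higher ranks in both treated lists.

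UCK2 had many shared sites, and their treated and untreated heights often overlapped. Of its 31 regions 16 were in all 4 lists. The median ratio of treated to untreated coverage was 0.935, against 0.684 over all regions and 0.916 at DNMT1. The site on chromosome 1 from 165823199 to 165823717 had 30 and 33 untreated and 36 and 35 treated reads at the summit, with ranks of 61.5 and 75.7 against 94.7 and 83.8. Both treated libraries were above both untreated ones on either scale. The site from 165864484 to 165865990 had 30 and 35 against 25 and 40, with higher treated ranks.

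Some UCK2 sites had lower coverage. The strongest by rank, from 165868010 to 165868570, had 57 and 40 against 27 and 32. The site from 165796550 to 165798560, on the lower side from which UCK2 is read, had 42 and 34 against 11 and 21, and was the 1 UCK2 site with lower ranks in both treated lists. The 2 remaining sites with higher treated coverage were weak. From 165853178 to 165853974 there were 6 and 5 against 10 and 7 reads, and from 165866167 to 165867411 there were 5 and 5 against 10 and 6. Over the 59 shared regions of the other 7 windows 0 had higher coverage in both treated lists, and 38 had lower, among them 2 of 7 at DNMT1. Whether UCK2 differs from them was not tested. On chromosome 1 as a whole 4.99% of shared regions had higher and 48.0% lower coverage in both treated lists, against 18.8% for each at UCK2.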

How the data were processed

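ATAC-seq peaks of 4 BCPAP libraries were used. Per the submitters' processing notes, MACS2, Picard, Bowtie2 and Trimmomatic were used with hg19. Versions, settings and any transposase shift were not given in the sources used here. The authors deposited 1 peak list for each library, with intervals of 500 bp for nearly all peaks. The deposited score sums to 1000000 in each list, a scaling done before deposit. The deposited fold is a ratio of summit pileup to background as the peak caller gave it, and the deposited −log10 p and −log10 q values are the peak's own. They served only to order or filter the peaks of 1 list.

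Fold values were whole multiples of 1 step per list (within 0.001 of a step for 100.0% of values), and coverage at the summit is that multiple less 1. Peaks of the 4 lists were merged, the highest summit of a list standing for it in a region. A region across a window's edge counted whole. Values of lists were set side by side without scaling. Each group mean and SD is over 2 libraries. Totals were compared with an exact permutation test over 6 assignments, and no test was run on single regions. Where the running peak numbers of a list without a peak skip a value at a region, this is counted for gained, lost and single-list regions. It is not given for every stretch. Start-site sequences and gene neighbours came from RefSeq on GRCh38.p14, a build other than that of the peaks, so no region was assigned to a promoter, and the planned counts over other pathway genes and thyroid markers were not run. The members and lists were chosen with earlier results of these data known. In each window the regions of all 4 lists with the highest mean rank were named, with every gained and lost region; further UCK2, DNMT1, DNMT3B and TET1 sites were named after their values were seen. The 100 kb tiles (at least 40 peaks) and the widest stretches were also chosen then. Alternatives were equal list lengths (221110 peaks), a −log10 q of at least 5, merging within 150 bp, an overlap of at least 50%, the replicate block, leaving out libraries or regions with missing numbers, and ranks or scores in place of coverage. Merging and coverage recovery were tested on simulated lists, of which 100.0% were recovered. Computation used scipy 1.17.1 and pandas 2.3.3 on numpy 2.4.6, in Python 3.11.15, with plots from matplotlib 3.10.9.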

Additional observations from a re-analysis of the deposited data

How the results depend on the processing

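Counts of gained and lost regions and the sign of the peak ratio depended on weak peaks. Among peaks with −log10 q of 5 or more, the windows' treated to untreated log2 ratio was −0.15, and those of DNMT3B (−0.038), UHRF1 (−0.090), TET1 (−0.58), TET3 (−0.63) and UCK2 (−0.15) also turned, while DNMT1 (0.18) and DNMT3A (0.23) stayed above 0. There 4 regions were gained (2.23% of all regions), 4 lost (6.88%) and 1 of 49 had higher coverage in both treated lists (2.00%). With equal list lengths 8 regions were gained (3.22%), and TET1 (−0.054) and UCK2 (−0.19) turned. When both peaks had to overlap by 50%, 7 regions were lost (3.55%), and without regions with a missing peak number 11 were gained (3.18%) and 1 lost (2.48%). By rank 14 regions were higher (22.5%) and 22 lower (23.7%) in both treated lists, and by the authors' score 15 (24.3%) and 23 (25.7%), against 3 and 41 by coverage. A missing library changes the condition itself: gained regions then numbered 21 to 67 (6.15% to 23.5% of all regions), lost regions 4 to 24 (5.27% to 11.3%), and among 77 to 83 regions of the remaining lists 5 to 12 were higher (6.90% to 16.7%) and 44 to 59 lower (49.8% to 71.8%). Without untreated replicate 1 the UCK2 ratio was −0.029, and it reached 0.091 without untreated replicate 2. The TET2 ratio was −0.87 without treated replicate 2 and 0.13 without treated replicate 1, where those of TET1 and UCK2 were 0. The log2 ratio over all windows stayed between 0.28 and 0.52. The labels tie no batch to a replicate number, and deviations of same-numbered libraries had a correlation of −0.0516 over 105414 regions. With the replicate block the log2 ratio was 0.40 and higher regions numbered 5 (6.23%), and no sign changed in any window. Fewer peaks or fewer lists alter these counts by construction, and no other cause was tested. Reads are unknown in number, and coverage of 4 to 12 limits most regions outside the shared ones.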
